A study of Fragaria vesca with 3 samples.

Results

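The genes described here are 4 woodland strawberry (Fragaria vesca) genes whose deposited descriptions name them as agamous-like MADS-box protein AGL61 or AGL62, chosen by gene identifier from the 18238 genes that had at least 1 FvSEP3 peak. FvH4_5g34740 and FvH4_2g40280 were described as AGL61, and FvH4_6g35690 and FvH4_2g02270 as AGL62. Peaks came from DNA affinity purification sequencing, in which a DNA-binding protein produced apart from the plant is used to fish out fragments of purified genomic DNA that carries no nucleosomes. The genomic DNA was that of wild-type fruit at 30 days post anthesis, and the samples were 2 IP replicates and 1 input library, with no peak list of the input used here. The lists held 19298 peaks in replicate 1, 21823 in replicate 2 and 13283 in the authors' merged list, and the depth of each library is unknown because the lists give no read counts. The fruit tissue was the source of the DNA, and the assay does not report where nucleosomes sat in that tissue.

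MADS-domain proteins bind DNA as dimers at short A/T-rich elements called CArG boxes, and plant members fall into type I and type II by the structure of the protein. SEPALLATA3 is a type II protein that assembles with other type II proteins into the complexes that specify floral organs. AGL61 and AGL62 are type I. In Arabidopsis, AGL61 acts in the central cell of the female gametophyte together with AGL80, and AGL62 acts in the endosperm, where it holds back cellularization while the seed begins to grow. In strawberry the fleshy part of the fruit is the receptacle, which bears the achenes that hold the seeds.

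Each of the 4 genes had a peak in both replicates whose intervals overlapped by at least 1 bp, against 58.6% of all genes with a peak in either list. The genes had 7 peaks in replicate 1, 8 in replicate 2 and 6 in the merged list. These made 6 overlapping pairs, and all 4 genes were in the merged list, against 58.3% of all genes. Each merged interval ran from the outermost start to the outermost end of its pair. The remaining peaks, 1 in replicate 1 and 2 in replicate 2, overlapped nothing in the other list. Over all genes, 70.5% of replicate 1 peaks and 62.0% of replicate 2 peaks overlapped a peak of the other list. Of the 6 pairs, 4 lay upstream of the gene, at deposited distances of −1794 to −2151 bp from the gene start, 1 lay in an exon and 1 in a 3′ UTR. The members were picked with these lists in view and number only 4, so their counts are descriptions beside the shares over all genes, and no test was made.

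**Figure D1:**
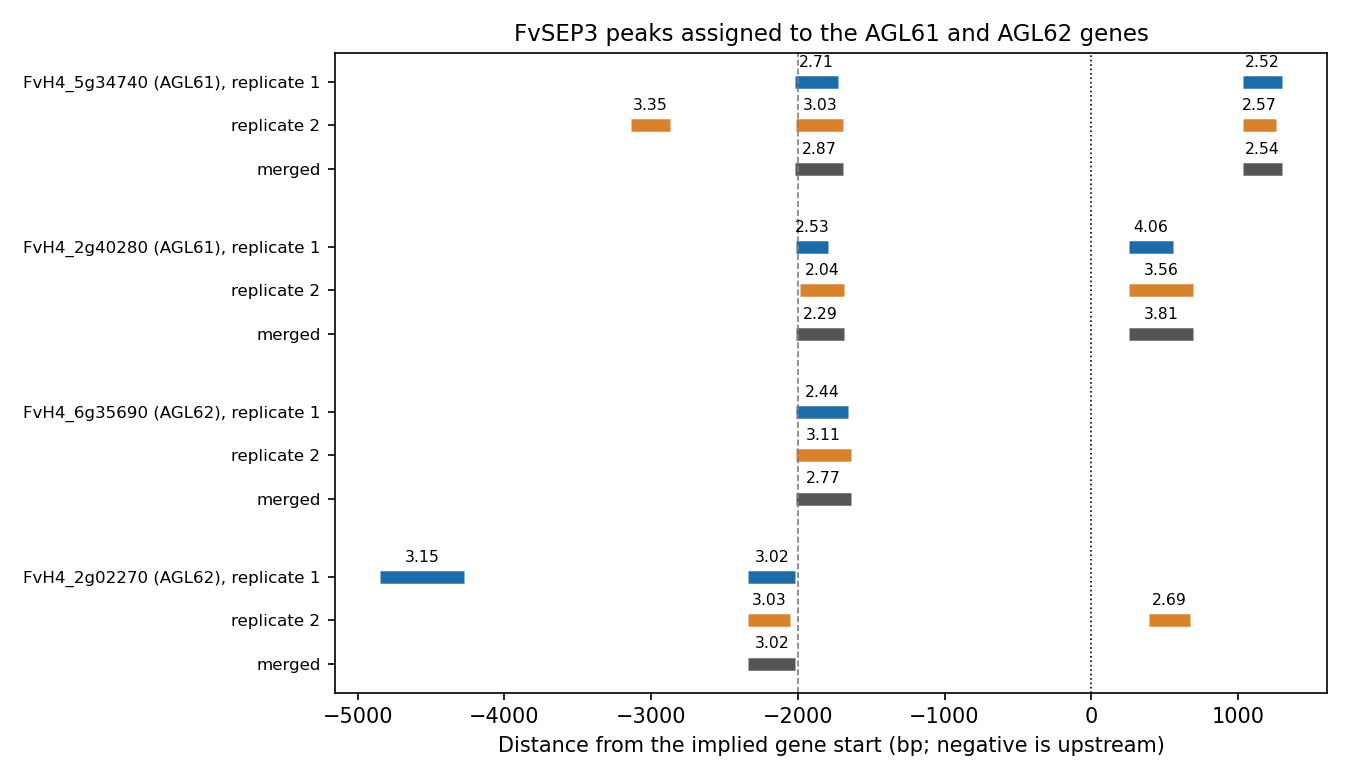
Peak intervals of the 4 genes in each replicate list and in the merged list, as distance in bp from the gene start that the merged list implies; the number over each bar is its fold enrichment (a mean in the merged rows), the dashed line is 2000 bp upstream and the dotted line the gene start. The orientation of FvH4_6g35690 is not settled and is drawn as if forward. The upstream bars of the overlapping pairs reach back to about the dashed line in 3 genes and lie wholly beyond it in FvH4_2g02270. Upstream bars found in 1 list alone, of FvH4_5g34740 and FvH4_2g02270, lie farther out. From top to bottom the 4 merged upstream bars have means of 2.87, 2.29, 2.77 and 3.02.

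FvH4_2g40280, the AGL61 gene on chromosome 2, carried the strongest peak of all 4 genes. It lay in the single exon of the gene. Its interval ran from 28727341 to 28727642 in replicate 1 and from 28727206 to 28727639 in replicate 2. Positions here are those of the authors' lists, for which the sources used here name no genome build. Fold enrichment, the peak caller's ratio of signal to background, was 4.06 in replicate 1 and 3.56 in replicate 2, with a mean of 3.81 ± 0.352 (SD, n = 2). These values stood above 94.4% and 82.1% of the peaks of their own lists. It was the highest of the 7 member peaks of replicate 1 and of the 8 of replicate 2. The deposited distances to the gene start, 391 and 385 bp, differed by 6 bp, against a median difference of 36 bp over all pairs assigned to one gene. The −log10 q of the peak caller was 19.96 in replicate 1 and 16.4 in replicate 2, against list medians of 9.59 and 10.1.

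The second pair of FvH4_2g40280 was a promoter peak, low in both lists and among the weakest in replicate 2. It ran from 28729691 to 28729913 in replicate 1, at −1924 bp, and from 28729582 to 28729884 in replicate 2, at −1945 bp. Its fold enrichment was 2.53 in replicate 1 and 2.04 in replicate 2, above 15.0% of the first list and 0.481% of the second, whose lowest value was 2.001. Its −log10 q was 6.90 and 3.92. The exon peak exceeded the promoter peak by 1.53 in replicate 1 and by 1.52 in replicate 2, a difference of 1.53 ± 0.00183 (SD, n = 2). An SD of 2 values that nearly coincide does not measure precision. Between the replicates, the fold enrichment of the exon peak had an SD of 0.352 and that of the promoter peak 0.350. The pair also had the shortest overlap of the 6, with 194 bp that made up 87.0% of the replicate 1 peak and 64.0% of the replicate 2 peak. In the merged list the exon peak ranked 1376 of 13283 by mean fold enrichment and the promoter peak 13071.

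FvH4_5g34740, the AGL61 gene on chromosome 5, had 2 peaks in replicate 1 and 3 in replicate 2. The promoter pair ran from 25438103 to 25438396 in replicate 1 and from 25438114 to 25438434 in replicate 2, with a fold enrichment of 2.71 and 3.03. The values were above 25.8% and 52.1% of their lists, so that the peak was in the lower part of one list and at the middle of the other. The intervals shared 283 bp, but the deposited distances, −1956 and −1810 bp, lay 146 bp apart, a gap reached by 17.3% of all pairs of one gene. The second pair lay in a 3′ UTR, from 25441159 to 25441426 in replicate 1 and from 25441160 to 25441384 in replicate 2. Its fold enrichment of 2.52 and 2.57, with a mean of 2.54 ± 0.0295 (SD, n = 2), was low in both lists, above 14.5% and 19.3% of their peaks. The promoter peak was higher than the 3′ UTR peak by 0.191 in replicate 1 and 0.468 in replicate 2.

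The highest peak of FvH4_5g34740 was found in replicate 2 alone. It was intergenic, from 25436990 to 25437251 at −3009 bp, with a fold enrichment of 3.35, above 72.2% of its list, and a −log10 q of 13.3. No replicate 1 peak of any gene overlapped it, although both of the weaker peaks of the gene were called in replicate 1. The description of FvH4_5g34740 rests on a RefSeq protein entry that the lists also give for FvH4_3g33170, another AGL61 gene, so the description alone does not separate these genes.

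FvH4_6g35690, the AGL62 gene on chromosome 6, had a single peak in each list, and the 2 replicates ranked it very differently. It ran from 28172421 to 28172777 at −1872 bp in replicate 1 and from 28172422 to 28172795 at −1794 bp in replicate 2, with starts 1 bp apart. The fold enrichment was 2.44 in replicate 1 and 3.11 in replicate 2, a mean of 2.77 ± 0.474 (SD, n = 2), the widest spread of the 6 pairs. The peak stood above 10.4% of replicate 1 and 56.9% of replicate 2. This gap of 46.5 percentile points was reached or exceeded by 10.4% of all 13665 overlapping pairs, including those assigned to different genes. Their median gap was 17.2 points. The peak was the lowest of the 7 member peaks in replicate 1 and the third of 8 in replicate 2. Ranked by −log10 p the same peak stood above 40.4% and 87.9% of the lists, higher in both.

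FvH4_2g02270, the AGL62 gene on chromosome 2, had the most even pair. It was classed as distal intergenic and ran from 1871825 to 1872146 in replicate 1 and from 1871826 to 1872112 in replicate 2. The fold enrichment was 3.02 and 3.03, with a mean of 3.02 ± 0.00729 (SD, n = 2), above 47.8% and 51.6% of the lists. The replicates gave −2139 and −2151 bp from the gene start, just outside the 2000 bp taken as promoter, where the other 3 genes lay just inside.

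Each list held a further peak of FvH4_2g02270 that the other lacked. In replicate 1 this was a distal intergenic peak of 574 bp from 1869316 to 1869889, at −4403 bp, with a fold enrichment of 3.15. In replicate 2 it was a peak in the single exon of the gene, from 1874557 to 1874835, at 424 bp, with a fold enrichment of 2.69. The exon peak stood above 26.5% of its list and lay at nearly the same distance into the gene as the exon peak of FvH4_2g40280.

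**Figure D2:**
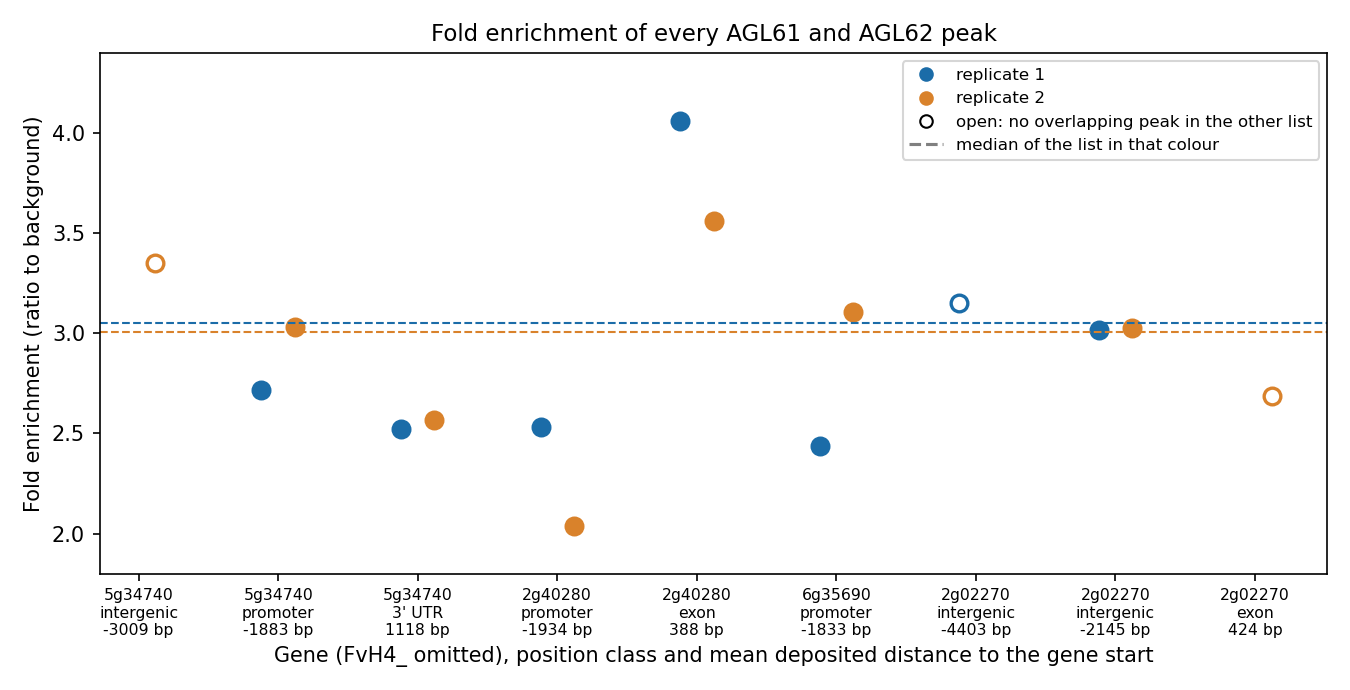
Fold enrichment, as deposited, of every peak of the 4 genes in replicate 1 (blue) and replicate 2 (orange), by gene, position class and mean deposited distance to the gene start; open circles had no overlapping peak in the other list and dashed lines mark the median of each list, 3.05 in replicate 1 and 3.004 in replicate 2. Only the exon peak of FvH4_2g40280 lay above the median line of its list in both replicates.

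Set against one another, the genes were alike in where the upstream pair lay, and only part of their order in strength held in both lists. The upstream pairs spanned a fold enrichment of 2.44 to 3.02 in replicate 1 and 2.04 to 3.11 in replicate 2. Their order was not the same in the lists: FvH4_2g02270, FvH4_5g34740, FvH4_2g40280 and FvH4_6g35690 from high to low in replicate 1, and FvH4_6g35690, FvH4_5g34740, FvH4_2g02270 and FvH4_2g40280 in replicate 2. FvH4_2g40280 was below FvH4_2g02270 and FvH4_5g34740 in both, and FvH4_6g35690 could not be placed, since its values ranged from below to above all others. Of the 6 pairs, 1 in replicate 1 and 4 in replicate 2 reached the median fold enrichment of the list. Against the median of overlapping peaks alone, 3.12 in both lists, 1 of 6 did so in replicate 1 and 1 of 6 in replicate 2. The exon peak of FvH4_2g40280 was the only pair to do so in both lists by either median.

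With promoters taken as the 2 kb before the gene start, 3 of the 4 genes had an overlapping promoter peak in both replicates, against 13.4% of all genes with a peak. Taken as 3 kb, FvH4_2g02270 joined them, for 4 of 4 against 16.2%, and taken as 1 kb, 0 of 4 remained, against 8.53%. Among all 2436 genes with such a promoter peak, 36.1% had none within 1 kb. The count for these 4 genes therefore turns on where the promoter is set to end. The deposited distances of their 4 upstream pairs lay within a stretch of 357 bp around that limit. Upstream peaks found in 1 list alone lay farther out, at −3009 bp for FvH4_5g34740 and −4403 bp for FvH4_2g02270. When the lists were restricted to peaks at or above their median fold enrichment, or to those with a −log10 q of 10 or more, 1 of 4 genes kept an overlapping pair, against 27.3% and 26.1% of all genes, and this was FvH4_2g40280 through its exon.

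The 4 genes are part of a larger set. The lists described 11 genes as AGL61 or AGL62, of which 7 were not among the 4, and 13 other type I genes in all once AGL80 and PHERES names are added. Of these 13, 8 had an overlapping pair, near the 58.6% of all genes. At 2 kb, 0 of 13 had an overlapping promoter peak, so none of the 7 AGL61 or AGL62 genes did, against 13.4% of all genes. At 3 kb, 1 of 13 did, against 16.2%. Their best pair had a mean fold enrichment of 3.02 to 4.46 with a median of 3.56, against 2.77 to 3.81 with a median of 2.95 for the 4 genes. The strongest were 2 AGL80 genes at a distance from the start. FvH4_5g21500, whose peak lay in an intron of the neighbouring FvH4_5g21501, had 4.11 and 4.80, and FvH4_6g08460, with an intergenic peak, had 3.997 and 3.987. The AGL62 gene FvH4_4g35860 had a pair at −2046 and −2037 bp, like that of FvH4_2g02270, with a fold enrichment of 3.88 and 3.79. The replicate lists classed its peaks as 3′ UTR although they lay upstream of its own start, while the merged list called the joint interval a promoter peak at −1776 bp. FvH4_6g50720 (AGL61) had a pair at 3.83 and 3.70, classed as exon in replicate 1 and 5′ UTR in replicate 2, and FvH4_6g43410 (AGL80) an exon pair at 3.24 and 2.81. The 5 genes with no pair were FvH4_3g14511 (AGL61), FvH4_2g03030 and FvH4_6g21070 (AGL62), FvH4_6g08570 (AGL80) and FvH4_7g01990 (PHERES 1-like).

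Peaks in the exon of the gene itself were seen in 2 of the 4 genes in at least 1 list, and in 10 of the 13 other type I genes, against 33.3% of all genes with a peak. Overlapping exon peaks in both lists were seen in 1 of 4 and 3 of 13, against 15.0% of all genes. The 17 exon peaks of these 12 genes, counted in each list separately, lay 79 to 655 bp into the gene, with a median of 391 bp. An exon peak can lie only as far into a gene as its exons reach. Whether the range reflects exon length was not tested. The exon peak of FvH4_2g40280 lay closest to that of FvH4_6g03620, an AGL61 gene at 376 and 368 bp with a fold enrichment of 3.11 and 3.07. Next among 7 other MADS-box genes whose overlapping pair was classed as exon in both lists, whether the exon was their own or a neighbour's, were FvH4_1g18960 (AGL18, at 367 and 314 bp) and FvH4_2g27630 (AGL80, at 328 and 313 bp). In replicate 1 and in replicate 2 alike, FvH4_2g40280 had the highest fold enrichment of these 4. FvH4_3g33170, which shares its RefSeq protein entry with FvH4_5g34740, had exon peaks at 471 and 79 bp in replicate 1. In replicate 2 it had 1 long peak overlapping both, classed as promoter at −311 bp, with a fold enrichment of 3.54. FvH4_5g34740 had no exon peak in either list.

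**Figure D3:**
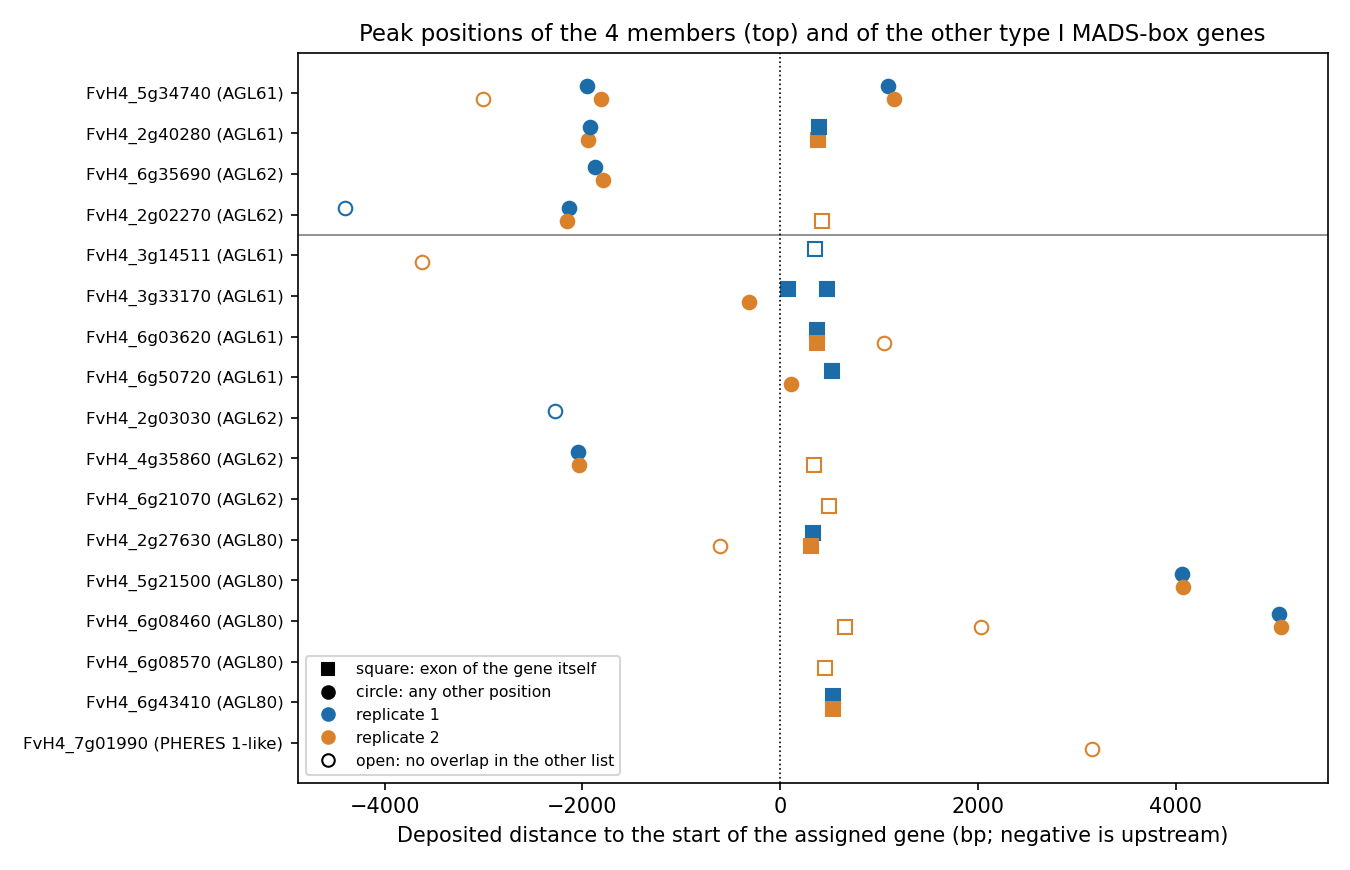
Deposited distance in bp from the start of the assigned gene for every peak of the 4 genes, above the grey line, and of the 13 other type I MADS-box genes, below it, with replicate 1 in blue, replicate 2 in orange, squares for exons of the gene itself and open symbols for peaks with no overlapping peak in the other list. Upstream pairs near −2000 bp are seen in the 4 genes and in FvH4_4g35860, and the squares lie between 79 and 655 bp.

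Among the 23 MADS-box genes not described as type I, 15 had an overlapping pair, near the 58.6% of all genes. Overlapping promoter peaks were found in 1 of 23 at 2 kb, against 13.4% of all genes, and in 2 of 23 at 3 kb, against 16.2%, where FvH4_2g27520 (AGL19) joined. The gene with the peak at 2 kb was FvH4_5g08530 (MADS-box transcription factor 23-like), with a pair at −778 and −844 bp. It was the only MADS-box gene outside the 4 with a pair classed as promoter in both replicate lists. By its merged interval FvH4_4g35860 was in that class too. By the mean of both lists, the peak of FvH4_5g08530 lay at least 1022 bp nearer to its start than the promoter peaks of the 4 genes. Its fold enrichment of 3.30 and 3.56 was above theirs in both lists. The pair of FvH4_5g34740 in a 3′ UTR had 2 counterparts in the MADS-box list, of which the nearest in distance was FvH4_1g18960 at 2217 and 2205 bp. The intergenic pair of FvH4_2g02270 had 1, the AGL80 gene FvH4_6g08460, on the other side of its gene start at 5045 and 5061 bp.

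A list of regulators of the endosperm, where AGL62 acts in Arabidopsis, matched 3 genes with a peak. Of these, 2 of 3 had an overlapping pair, against 58.6% of all genes, and 0 of 3 an overlapping promoter peak, against 13.4%. FvH4_2g10170, described as DEMETER-like after the DNA glycosylase that removes methylation in the central cell, had overlapping exon peaks with a fold enrichment of 3.34 and 2.60. FvH4_6g33072, described as the receptor-like kinase HAIKU2, which promotes endosperm growth in Arabidopsis, had an intergenic pair 5194 and 5170 bp from the gene start at 4.75 and 3.89. FvH4_5g39110, described as the histone methyltransferase EZA1, had 1 exon peak in replicate 1 alone, at 2.44.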

How the data were processed

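The submitters' processing notes name BWA for alignment and MACS2 for peak calling; the sources used here give neither versions and settings nor a genome build. The authors deposited, for each peak, a −log10 p-value, a −log10 q-value and a fold enrichment (a ratio of signal to background), with gene, position class, distance to the gene start and length, and, in the merged list, the mean of both replicates. Peak values rank peaks within their own list only. Whether both lists were called against the 1 input library is not stated.

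In the merged list the deposited distance was counted from the middle of the interval, as 1738 of 2113 genes with several merged peaks gave 1 gene start within 1 bp. In the replicate lists it was not counted from the middle (0.799% and 0.839% of such genes). A gene start implied by several merged peaks was available for 4324 peaks of replicate 1 and 4438 of replicate 2. Of these, 99.1% and 99.5% had the point inside the peak. The deposited distances gave the starts used in the map of intervals, and the orientation of 3 genes.

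A pair was an overlap of at least 1 bp between peaks of both lists assigned to one gene. Percentiles are ranks among all peaks of a list. With the assigned gene ignored, own code and bedtools 2.31.1 both found 13665 overlapping pairs. Of these, 13515 were assigned to one gene. The code was also tested on simulated intervals. Calculations used Python 3.11.15 and pandas 2.3.3. The labels call the IP samples biological replicates without saying whether they came from separate plants, and the SD over n = 2 describes the deposited pair of values. The 4 genes and the lists of other genes were chosen with earlier results of these data known. Other genes were named by rule: all other type I MADS-box genes by description words, up to 5 genes of the endosperm list, the 3 MADS-box genes with a pair of the same class nearest in distance, and the nearest genes with peaks within 20 kb. The planned protein, promoter and CArG box comparison was not run, as no sequence was used here.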

Additional observations from a re-analysis of the deposited data

How the results depend on the processing

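The choice of overlap made no difference to the 4 genes: with an overlap covering 50% or more of each peak, with midpoints at most 100 bp apart, or with the merged list, there were again 4 genes with a pair, 3 with a promoter pair and 6 pairs, at a mean fold enrichment of 2.89. The strength of the peaks did. With only peaks at or above their list's median fold enrichment, and likewise with a −log10 q of at least 10, 1 gene kept a pair, 0 kept a promoter pair, 1 pair was left and the mean fold enrichment was 3.81, that of the exon peak of FvH4_2g40280. A 1 kb promoter left 0 genes and a 3 kb promoter gave 4. On a single replicate list, 4 genes had a peak, 3 had a promoter peak, the peaks numbered 7 to 8 and their mean fold enrichment was 2.92 in either list. The mean percentile of the pairs in their lists was 39.2 by fold enrichment and 44.1 by −log10 p. For single peaks and this percentile, 33 of 33 alternative values moved by less than the SD of the replicates, but this is no measure of stability. A pair that is kept under another overlap setting, a filter or the merged list keeps its fold enrichment. With n = 2, leaving out 1 replicate cannot move a mean by more than the SD. The pairs lost under the strength filters are not among the 33. No paired analysis was possible because the only numbered group was the IP, and the lists hold no input values. Precision is limited by 2 lists and unknown depth.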

Other observations

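Peaks assigned to neighbouring genes stood close to several of these peaks. The nearest to FvH4_5g34740 belonged to FvH4_5g34741, which has no description. Its exon peak, 2295 bp from the 3′ UTR peak in replicate 1, had a fold enrichment of 4.11, above 95.1% of that list and above both FvH4_5g34740 peaks there. In replicate 2 a promoter peak of FvH4_5g34741 stood 976 bp from the 3′ UTR peak at 3.94, with no overlapping peak in replicate 1. The replicate 1 peak of FvH4_2g02270 at −4403 bp lay 414 bp from an intergenic peak assigned to FvH4_2g02260, described as auxin-induced protein X15, which was found in both replicates at 3.36 and 3.21. The exon peak of FvH4_2g40280 had an exon peak of FvH4_2g40270 (laccase-14-like) 2384 and 2294 bp away, at the lower fold enrichment of 2.87 and 3.22. The promoter peak of FvH4_6g35690 had one of FvH4_6g35700 (a probable E3 ubiquitin-protein ligase RNF217) 4683 and 4638 bp away, at 2.93 and 3.60. In replicate 2 a 5′ UTR peak of FvH4_6g35680 (subtilisin-like protease) stood nearer, 3376 bp away at 3.43, with no overlapping peak in replicate 1. Which gene a distal peak acts on, if any, was not tested, and assignment is the authors' own.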
